A study of Mus musculus with 10 samples.

Results

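The 4 Hox clusters were described here as stretches of open chromatin in muscle stem cells of aged and young mice after prostaglandin E2 (PGE2). Hox genes encode homeodomain transcription factors and lie in the clusters HoxA to HoxD on chromosomes 6, 11, 15 and 2. Touching or overlapping rows of each deposited peak list were merged into regions, and a region was taken as a Hox region where its strongest summit lay within 20 kb of the GRCm38 span of a Hox gene. That gave 150 of 117284 regions in the aged list and 145 of 131656 in the young list, around 38 Hox genes. The 20 kb limit fell in a gap: the farthest region kept lay 12.1 kb from a gene in the aged list (2.45-fold) and 12.0 kb in the young list (4.31-fold), and the nearest left out lay 24.7 kb away in the aged list (4.18-fold) and 24.1 kb in the young list (3.04-fold).

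The cells were sorted from C57BL/6 mice by flow cytometry as positive for α7-integrin and CD34, and their open chromatin was mapped by ATAC-seq, where a transposase inserts adapters into accessible DNA. The aged PGE2 group (mice of 20 to 25 months) has 3 libraries and the young PGE2 group (8 to 20 weeks) has 2, each held for 2 h in medium with serum, bFGF and PGE2. Libraries of 3 aged and 2 young samples held with 0.1% DMSO as vehicle are labelled too, but the response to PGE2 was not analysed here, so an age difference in that response cannot be told apart from an age difference present without PGE2. The deposited lists, 1 for each age, hold no values of single libraries. No spread between replicates could therefore be set beside a difference between the ages, no test was made of it, and the intervals over regions cover counting error only. Sites next to each other are not independent. In such bulk lists, fewer cells with an open site and a less open site in each cell cannot be told apart. Fold is the authors' own value, the peak caller's enrichment over background at the strongest summit of a region. The depth is unknown and the young list is longer, so folds of the 2 lists stand side by side below and are no measure of change. As a check of the cell label, Pax7, Myf5, Cd34, Calcr and Sdc4, the muscle stem cell markers with a listed start, all had a region within 1 kb of it in both lists (16.6-fold to 45.3-fold in the aged list). The leukocyte genes Ptprc and Cd3e had none in either list, while the fibroblast marker Pdgfra had one of 6.01-fold in the aged list and 6.21-fold in the young list, and the endothelial marker Kdr one of 2.69-fold in the aged list and 8.01-fold in the young list.

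The genes of a Hox cluster are all transcribed in the same direction and are numbered by paralogue from 1 at the 3′ end of the cluster to 13 at the 5′ end. During development they are switched on in that order, so that low numbers act towards the head and high numbers towards the tail and the tips of the limbs. Polycomb complexes keep unused Hox genes silent and Trithorax proteins such as the product of Kmt2a keep used ones active. Adult cells retain much of the pattern of the place where they arose. Paralogues 9 to 13 of HoxA and HoxD pattern the limb, and Hoxc9 to Hoxc11 are known as markers of the hind limb and the lower trunk.

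The sequences at the Hox starts ranged from dense CpG islands to AT-rich DNA. RefSeq promoters of GRCm38.p6, from 250 bases before to 50 after a start, were held for 22 of the 38 genes, with 2 starts each for Hoxa10 and Hoxd11, which makes 24. The first pair below shows the highest count of CG dinucleotides among them and, in Hoxa9, the lowest count (shared with Hoxd4 and a start of Hoxd11), with each CG in capitals. Both had a region within 1 kb in the 2 lists. They lie at chr6:52260831-52261130 (Hoxa13) and chr6:52227321-52227620 (Hoxa9), both on the minus strand, and are written 5′ to 3′.
Hoxa13: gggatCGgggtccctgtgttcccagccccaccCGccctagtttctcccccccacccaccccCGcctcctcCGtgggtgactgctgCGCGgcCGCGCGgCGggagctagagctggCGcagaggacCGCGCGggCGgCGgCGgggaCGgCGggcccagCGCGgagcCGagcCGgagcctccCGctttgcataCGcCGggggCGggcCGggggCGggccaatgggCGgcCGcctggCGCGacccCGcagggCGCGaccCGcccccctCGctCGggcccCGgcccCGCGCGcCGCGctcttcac
Hoxa9: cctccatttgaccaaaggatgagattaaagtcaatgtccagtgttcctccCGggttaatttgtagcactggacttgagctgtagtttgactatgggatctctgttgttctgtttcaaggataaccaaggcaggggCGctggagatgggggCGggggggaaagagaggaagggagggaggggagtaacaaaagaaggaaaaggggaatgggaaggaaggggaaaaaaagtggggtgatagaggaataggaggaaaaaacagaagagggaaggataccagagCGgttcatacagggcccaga
The next pair are the 2 Hox promoters that hold the word TTTATNG, which posterior Hox and Cdx proteins are known to bind, on either strand, in capitals. They lie at chr2:74721728-74722027 (Hoxd4) and chr11:96281655-96281954 (Hoxb8), both on the plus strand, and neither listed start had a region within 1 kb in either list.
Hoxd4: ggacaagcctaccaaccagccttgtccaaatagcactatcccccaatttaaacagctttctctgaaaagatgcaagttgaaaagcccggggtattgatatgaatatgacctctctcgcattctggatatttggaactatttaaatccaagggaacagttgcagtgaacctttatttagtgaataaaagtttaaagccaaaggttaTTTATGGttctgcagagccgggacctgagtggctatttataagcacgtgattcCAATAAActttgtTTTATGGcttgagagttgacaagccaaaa
Hoxb8: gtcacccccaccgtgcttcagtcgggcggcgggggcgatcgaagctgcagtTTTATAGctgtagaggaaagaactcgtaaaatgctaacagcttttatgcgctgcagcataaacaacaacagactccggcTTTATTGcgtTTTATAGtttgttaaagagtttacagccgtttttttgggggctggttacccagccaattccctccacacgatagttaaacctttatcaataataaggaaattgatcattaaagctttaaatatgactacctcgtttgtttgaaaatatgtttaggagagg
The 18 promoters with a region within 1 kb of the start in both lists held a median of 20 CG dinucleotides (4 to 45), and the 6 without held a median of 11.5 (4 to 14). Over 21263 promoters of protein-coding genes the median was 13. TTTATNG occurred in 2 of the 24 Hox promoters (8.33%), with 3 copies in each, and in 9.58% of all promoters. The cAMP response element TGACGTCA, which CREB factors bind, occurred in 0 of 24 and in 2.23% of all promoters. Its part TGACG occurred in 7 (29.2%) and in 23.6% of all, the AP-1 site TGANTCA in 1 (4.17%) and in 6.99%, and TGATTNAT, a word of Pbx-Hox pairs, in 2 (8.33%) and in 2.75%. Both strands were searched, and a match is a stretch of letters and not a measured site.

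HoxA, HoxC and HoxD had large shares of open DNA, and HoxB had a small one. Between their outermost genes the 4 clusters span 485 kb, of which 18.3% lay in a region in the aged list and 23.2% in the young list. Over the whole genome these shares were 2.69% in the aged list and 3.47% in the young list, taken from the first to the last row of each chromosome. HoxC had the most, with 31.9% of its 115.7 kb covered in the aged list and 41.4% in the young list. HoxA followed, with 31.7% of its 98.5 kb in the aged list and 39.1% in the young list. In HoxD it was 16.3% of 96.9 kb in the aged list and 19.7% in the young list. Of the 173.9 kb of HoxB, 2.71% was covered in the aged list and 4.10% in the young list, below the shares of chromosome 11 as a whole (3.56% in the aged list and 4.84% in the young list). Hoxb13 stands 74.7 kb apart from the rest of HoxB. Without it the stretch from Hoxb9 to Hoxb1 was covered to 3.099% in the aged list, below the share of its chromosome, and to 5.52% in the young list, above it. By number, HoxB held 0.862 regions per 10 kb in the aged list and 0.977 in the young list, where the whole genome held 0.441 in the aged list and 0.496 in the young list.

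**Figure D1:**
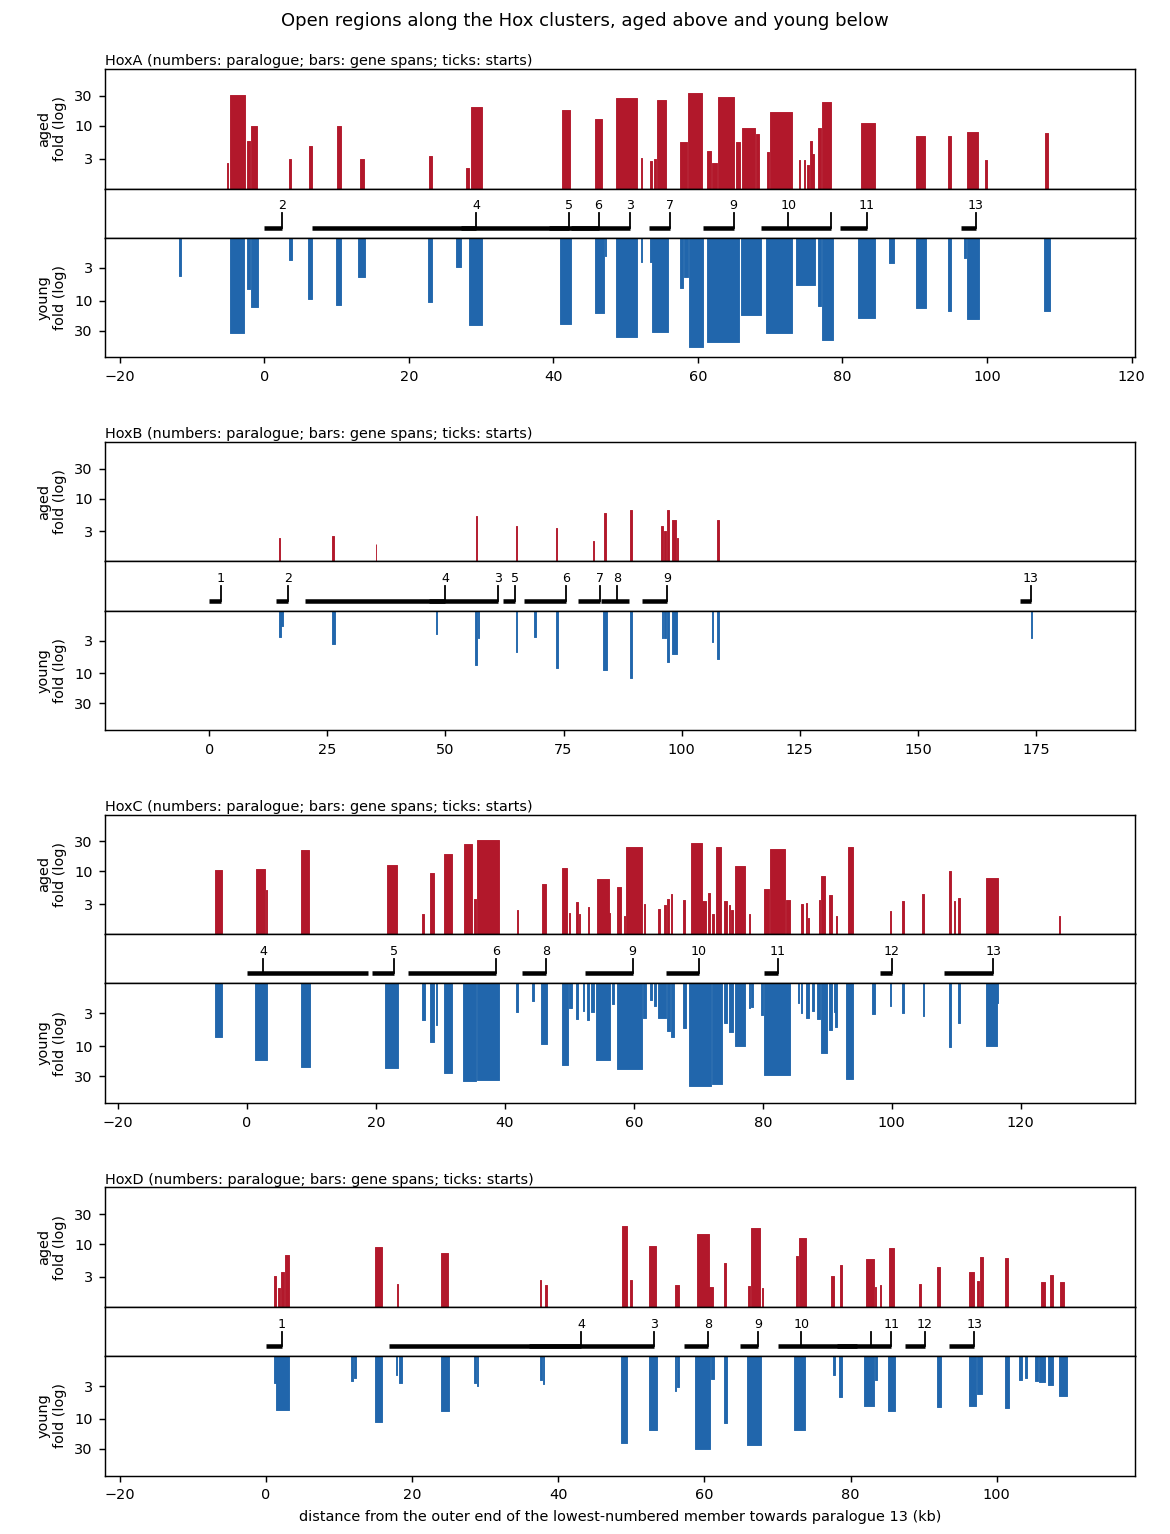
Open regions along the 4 Hox clusters, with the fold over background of each region's strongest summit on log axes (aged list upwards in red, young list downwards in blue) against the distance in kb from the outer end of the lowest-numbered member towards paralogue 13; black bars are gene spans, ticks the starts used, and numbers the paralogues. Regions of at least 10-fold number 11 in the aged list and 20 in the young list in HoxA, and 14 (aged) and 16 (young) in HoxC. The highest bar of HoxB reaches 6.63-fold in the aged list and 12.0-fold in the young list.

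Hox regions were dense along the clusters, and none was among the very strongest of its list. Between the outermost genes of the 4 clusters stood 2.76 regions per 10 kb in the aged list and 2.64 in the young list. The whole genome held 0.441 in the aged list and 0.496 in the young list. In the top 10% of their list by the caller's significance stood 7 of 150 aged regions (4.67%, 95% exact binomial interval 1.90 to 9.38) and 8 of 145 young regions (5.52%, 2.41 to 10.6), where the same rule takes 9.99% of all aged and 10% of all young regions. The interval of the young share includes that of the whole list, and the interval of the aged share does not. None stood in the top 5% of either list, and 14% of aged and 19.3% of young Hox regions stood in the top 20%. At least 10-fold were 29 aged Hox regions (19.3%) and 44 young ones (30.3%), beside 25.4% of all aged and 29.0% of all young regions. The median fold was 3.94 for Hox regions and 4.32 for all regions in the aged list, and 4.62 for Hox regions and 4.89 for all regions in the young list. The number of Hox regions was 1.03 times as high in the aged list as in the young list and their summed length 0.785 times as great. Over all regions the ratio, aged to young, was 0.891 for the number and 0.776 for the summed length.

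Most Hox genes had an open start at both ages. Starts came from the RefSeq promoters for 22 genes and from the 5′ end of the gene span for 16, where the span can begin at a predicted transcript and miss the start in use. Of the 38 genes, 28 had a region within 1 kb of a start in both lists, 1 in the aged list alone, 1 in the young list alone and 8 in neither. Among the 22 with a listed start these counts were 16, 1, 0 and 5. Of 17492 protein-coding genes with a listed start, 63.2% had one in both lists, 0.366% in the aged list alone, 2.5% in the young list alone and 33.9% in neither. Open Hox starts were lower than those of other genes: the median fold of the 29 genes with a start region was 12.35 in the aged list and 18.9 in the young list, where the open starts of all genes had medians of 30.2 in the aged list and 46.3 in the young list. A start region of at least 10-fold was found for 11 of the 22 genes in the aged list and 13 in the young list. Of all genes with a listed start, 52.1% had one in the aged list and 56.6% in the young list.

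**Figure D2:**
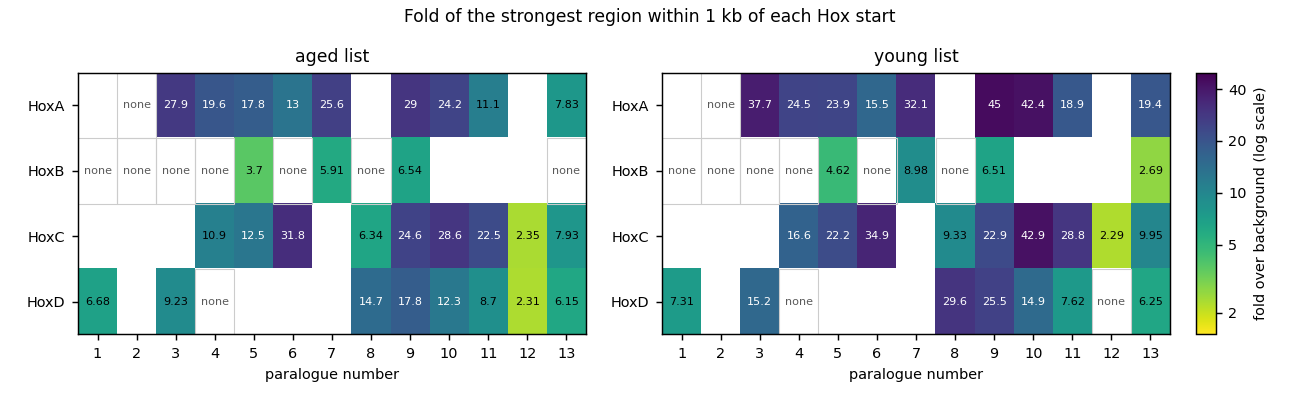
Fold over background (colour, log scale) of the strongest region within 1 kb of each Hox start, by cluster and paralogue number, in the aged list (left) and the young list (right); "none" marks a member with no region there and a blank square a number with no member described. All 9 HoxC genes and 9 of 10 HoxA genes have a value in both lists, while HoxB has 3 values in the aged list and 4 in the young list.

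In HoxA, 9 of 10 genes had a start region in both lists, and 8 of them in the aged list and 9 in the young list were of at least 10-fold. Hoxa9, a posterior factor known from limb patterning and from leukaemia, lies at chr6:52223097-52227370 on the minus strand. Its start region was 29.0-fold in the aged list and 45.0-fold in the young list, and the strongest summit lay 1156 bp (aged) and 1171 bp (young) downstream of the listed start. With 2 kb added on either side, 83.9% of the Hoxa9 span was covered in the aged list and 90.3% in the young list, the highest share of any member in both. The strongest Hox region of either list lay just past the 3′ end of the Hoxa9 span, at chr6:52221089-52223043 in the aged list (33.3-fold) and chr6:52221175-52223100 in the young list (55.2-fold). Hoxa10, which patterns the upper limb and the uterus, had its strongest start region at the outer of its 2 starts, at 24.2-fold in the aged list and 42.4-fold in the young list. Both summits lay 313 bp downstream of that start. Hoxa3, a factor of the neck and the pharyngeal organs, had a start region of 27.9-fold in the aged list and 37.7-fold in the young list. The Hoxa3 span holds those of Hoxa4, Hoxa5 and Hoxa6, and its listed start lies between Hoxa6 and Hoxa7. The start region of Hoxa7, a factor of the trunk, was 25.6-fold in the aged list and 32.1-fold in the young list. The summits of Hoxa7 lay 987 bp (aged) and 995 bp (young) inside the gene, and none of its promoter's 300 bases was covered in either list. Hoxa4, Hoxa5, Hoxa6 and Hoxa11 lay between 11.1-fold and 19.6-fold in the aged list and between 15.5-fold and 24.5-fold in the young list. Hoxa13, the factor of the hand and foot plate, had 7.83-fold in the aged list and 19.4-fold in the young list. Hoxa2, which patterns the hindbrain and the second pharyngeal arch, was the HoxA gene with no start region. A window of 2.5 kb found one at the Hoxa2 start in both lists. Within the Hoxa2 span and 2 kb on either side, the strongest region reached 9.80-fold in the aged list and 12.7-fold in the young list.

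In HoxC all 9 genes had a start region in both lists, 6 of them of at least 10-fold in each. Hoxc6, a factor of the thorax, had the highest start region of the aged list, at 31.8-fold in the aged list and 34.9-fold in the young list. Its region was wide, 3386 bp in the aged list and 3495 bp in the young list. A second region inside the Hoxc6 span reached 27.6-fold in the aged list and 35.4-fold in the young list. Hoxc10, a factor of the lumbar level and the hind limb at chr15:102966796-102971898, had 28.6-fold in the aged list and 42.9-fold in the young list. Between it and Hoxc11 lay a region of 24.7-fold in the aged list (chr15:102963312-102964137) and 40.4-fold in the young list (chr15:102963175-102964809). Hoxc9 had 24.6-fold in the aged list and 22.9-fold in the young list, and Hoxc11 had 22.5-fold in the aged list and 28.8-fold in the young list. The genes towards paralogue 13 had lower start regions. Hoxc13, known from hair and nails, had 7.93-fold in the aged list and 9.95-fold in the young list. Hoxc12 had 2.35-fold in the aged list and 2.29-fold in the young list, both near the floor of the lists, whose lowest folds were 1.83 (aged) and 1.76 (young). Between Hoxc12 and Hoxc11, close to the 3′ side of the Hotair span, a region of 24.4-fold stood in the aged list and of 33.0-fold in the young list. Hotair is a long noncoding RNA transcribed from HoxC. Hoxc4, Hoxc5 and Hoxc8 had start regions of 10.9-fold, 12.5-fold and 6.34-fold in the aged list, and of 16.6-fold, 22.2-fold and 9.33-fold in the young list.

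Hoxd8 and Hoxd9 had the highest start regions of HoxD in both lists. Hoxd9 (chr2:74697763-74700208) had a start region of 17.8-fold in the aged list and 25.5-fold in the young list. Hoxd8 had 14.7-fold in the aged list and 29.6-fold in the young list. Hoxd10 followed at 12.35-fold in the aged list and 14.9-fold in the young list. The strongest HoxD region of the aged list lay inside the Hoxd3 span, at chr2:74715747-74716450, with 19.2-fold, and its young counterpart had 24.2-fold. The other HoxD start regions were lower. Hoxd11 had 8.70-fold in the aged list and 7.62-fold in the young list, and Hoxd13, the factor of the digits, had 6.15-fold in the aged list and 6.25-fold in the young list. These Hoxd13 values belong to different regions, with the aged summit 958 bp upstream of the start and the young one 440 bp downstream. Across the Hoxd13 start the aged region had 3.60-fold, and the upstream region of the young list had 4.05-fold. Hoxd1 had 6.68-fold in the aged list, with the summit 758 bp upstream of its start, and 7.31-fold in the young list, 48 bp upstream. Across the Hoxd1 start the aged region had 3.56-fold. Hoxd3 had 9.23-fold in the aged list and 15.2-fold in the young list. The Hoxd3 span holds that of Hoxd4, and its listed start lies between Hoxd8 and Hoxd4. Hoxd12 was the gene with a start region in the aged list alone, a weak one of 2.31-fold. Hoxd4, whose AT-rich promoter is printed above, had none in either list.

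HoxB had little open DNA and no strong region. Its highest fold lay between Hoxb9 and Hoxb8, at 6.63-fold in the aged list (chr11:96278846-96279097) and 12.0-fold in the young list (chr11:96278836-96279099). Start regions in both lists were found for Hoxb5, Hoxb7 and Hoxb9. Hoxb9 had 6.54-fold in the aged list and 6.51-fold in the young list. Hoxb7 had 5.91-fold in the aged list and 8.98-fold in the young list, and Hoxb5 had 3.70-fold in the aged list and 4.62-fold in the young list. Hoxb1, a factor of the hindbrain, had no region within its span and 2 kb on either side in either list. Hoxb4, known from blood stem cells, had none there in the aged list and 1 of 2.33-fold in the young list. Hoxb13, known from the prostate and the tail, had none in the aged list and a start region of 2.69-fold in the young list. It was the 1 member with a start region in the young list alone. Hoxb2, Hoxb3, Hoxb6 and Hoxb8 had no start region in either list, although for Hoxb2, Hoxb3 and Hoxb6 the start came from the end of the span. The listed start of Hoxb8 lies inside its span. The summit of the highest HoxB region lay 421 bp (aged) and 425 bp (young) upstream of the 5′ end of that span.

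By paralogue number, starts without a region were found mostly among paralogues 1 to 5 and mostly in HoxB. Of the 16 genes of paralogues 9 to 13, 15 had a start region in the aged list and 15 in the young list. For paralogues 6 to 8 it was 6 of 8 in each list, and for paralogues 1 to 5 it was 8 of 14 in each. Leaving out HoxB, it was 14 of 14 in the aged list and 13 of 14 in the young list for paralogues 9 to 13, 5 of 5 in each list for 6 to 8, and 7 of 9 in each for 1 to 5. With a window of 2.5 kb and all 4 clusters, it was 15 of 16 in the aged list and 16 of 16 in the young list for paralogues 9 to 13, 8 of 8 in each list for 6 to 8, and 10 of 14 in the aged list and 11 of 14 in the young list for 1 to 5. At 1 kb, all 4 genes of paralogue 9 had a start region in both lists, as did all genes of paralogues 5, 7, 10 and 11. Both genes of paralogue 2 had none at 1 kb, and both had one in each list at 2.5 kb. The median share of a gene covered, with 2 kb on either side, was 26.3% in the aged list and 30.6% in the young list for paralogues 9 to 13. It was 11.7% in the aged list and 13.8% in the young list for paralogues 1 to 5. The clusters did not share 1 gradient. The rank correlation of covered share with paralogue number was 0.75 in HoxA in the aged list and 0.73 in the young list (10 genes). In HoxB it was 0.48 in the aged list and 0.43 in the young list (10 genes). In HoxC it was 0.17 in the aged list and 0.22 in the young list (9 genes), and in HoxD 0.27 in the aged list and -0.07 in the young list (9 genes). With the highest fold near each gene in place of the covered share, the correlation in HoxA was 0.03 in the aged list and 0.36 in the young list. It was 0.42 in the aged list and 0.53 in the young list in HoxB, -0.28 in the aged list and -0.18 in the young list in HoxC, and -0.19 in the aged list and -0.13 in the young list in HoxD. Neighbouring genes share regions, so these values are a description. The listed starts of Hoxa3 and Hoxd3, counted with paralogues 1 to 5, lie beyond neighbours of higher number. Over all 38 genes the median share covered was 20.2% in the aged list and 22.6% in the young list. Over all 21887 protein-coding genes it was 4.25% in the aged list and 5.86% in the young list. The Hox genes and all genes were not matched for gene length.

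**Figure D3:**
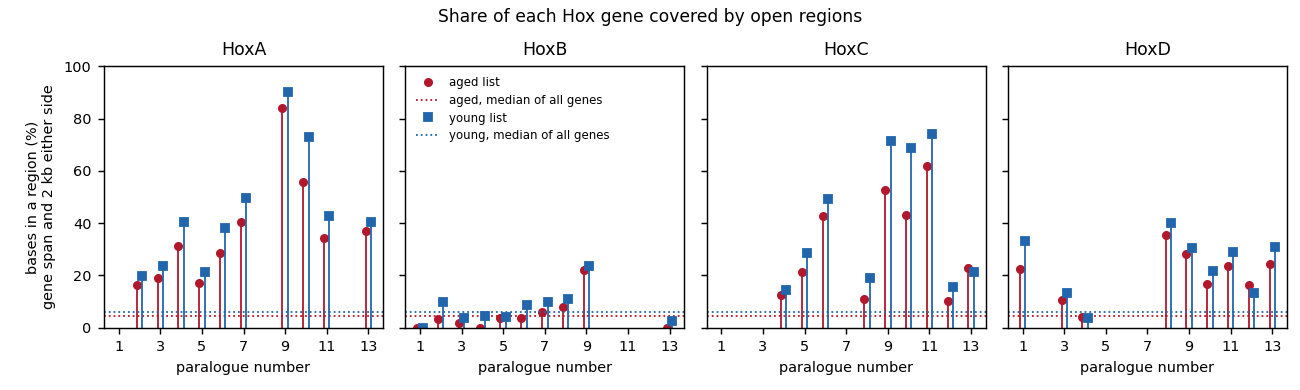
Percent of bases inside an open region for each Hox gene, over its span and 2 kb on either side, by paralogue number in each cluster (aged list red circles, young list blue squares); dotted lines are the medians over all protein-coding genes in the same list. Hoxa9 stands highest at 83.9% in the aged list and 90.3% in the young list, HoxC peaks at paralogues 9 to 11, and most HoxB genes lie at or near the dotted lines.

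Of the 6 microRNA genes in the clusters, 2 lay inside an open region in both lists, 1 in HoxA and 1 in HoxC, while those of HoxB lay kilobases from any region. They belong mainly to 2 families that share a seed (bases 2 to 8, in capitals), and their mature RefSeq sequences are shown since the loci of 1 family differ in openness. miR-196 is known to target Hox transcripts.
mmu-miR-196b-5p: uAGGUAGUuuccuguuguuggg
mmu-miR-196a-5p: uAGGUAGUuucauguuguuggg
mmu-miR-10a-5p: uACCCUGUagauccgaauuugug
mmu-miR-10b-5p: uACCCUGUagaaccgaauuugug
mmu-miR-615-3p: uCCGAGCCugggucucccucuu
Mir196b, between Hoxa10 and Hoxa9, lay inside a region of 9.37-fold in the aged list and 17.2-fold in the young list. Mir615, inside Hoxc5, lay in the Hoxc5 start region of 12.5-fold in the aged list and 22.2-fold in the young list. Mir196a-2, between Hoxc10 and Hoxc9, was 260 bp from the nearest region in the aged list and touched a weak one of 2.33-fold in the young list. Mir196a-1, which gives the same miR-196a-5p from HoxB, was 3850 bp from a region in the aged list and 3364 bp in the young list. Mir10a, near Hoxb4, was 5342 bp from a region in the aged list and 2737 bp in the young list. Mir10b, inside the Hoxd4 span, was 544 bp from a weak region in the aged list (2.21-fold) and 965 bp from one in the young list (2.82-fold).

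Most Hox regions of each list had a counterpart in the other list, and those found at 1 age were low in fold, as in the whole lists. The median fold of aged-only regions was 2.26 for Hox regions and 2.40 for all. For young-only regions it was 2.55 for Hox regions and 2.73 for all. Of the 150 aged Hox regions, 15 (10%, 95% exact interval 5.71 to 16.0) were overlapped by no young region, beside 10.7% of all aged regions. Of the 145 young Hox regions, 35 (24.1%, 17.4 to 31.9) were overlapped by no aged region, beside 28.2% of all young regions. The intervals of both shares include the share of the whole list. The rule for a counterpart sets these shares: with a reciprocal overlap of at least 50%, 42% of aged and 40% of young Hox regions had none, beside 33.9% of all aged and 41.2% of all young regions. With the 58642 strongest regions of each list, 5.63% of aged and 9.09% of young Hox regions had none, beside 11.1% of all such aged and 15.4% of all such young regions. The strongest aged-only Hox region had 3.32-fold, inside the Hoxc13 span (chr15:102927003-102927195), and the strongest young-only region 4.62-fold, inside the Hoxc6 span (chr15:103007375-103007620). In HoxA these were an aged-only region of 2.84-fold, 1354 bp upstream of the Hoxa13 start and within 1 kb of the start of the noncoding RNA gene Hottip, and a young-only region of 4.09-fold. In HoxB the aged-only region had 2.35-fold and the young-only one 3.21-fold. In HoxD the aged-only region had 2.64-fold and the young-only one 2.95-fold. Aged-only were 3 of 58 aged regions in HoxC, 6 of 36 in HoxD, 3 of 15 in HoxB and 3 of 41 in HoxA, beside 10.7% of all. Young-only were 14 of 57 young regions in HoxC, 10 of 36 in HoxD, 6 of 18 in HoxB and 5 of 34 in HoxA, beside 28.2% of all. Where regions were shared, any summit of the young list was counted, not only the strongest of its region. For 130 of 135 shared aged Hox regions (96.3%) one lay within 100 bp of the strongest aged summit, at a median of 14 bp. For all shared aged regions it was 95.1%, with a median of 14 bp. Against the strongest young summits alone, 37.3% of all 150 aged Hox regions had none within 100 bp, beside 28.2% of all aged regions.

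The wide open domains of the young list were often broken into several regions in the aged list. Of the 110 young Hox regions with an overlap, 20 (18.2%, 95% exact interval 11.5 to 26.7) were met by 2 or more aged regions, beside 10.8% of all such young regions. The reverse, an aged region met by 2 or more young ones, was found for 4 of 135 shared aged Hox regions, beside 1.67% of all. Breaks were more frequent at wide regions: of 15 shared young Hox regions of at least 2 kb, 11 were broken (73.3%, 44.9 to 92.2), where 43.7% of all 7356 such shared young regions were. The other 9 broken Hox regions were narrower: 6 of 24 of 1 to 2 kb were broken (25%), beside 21.4% of all such regions, and 3 of 27 of 0.5 to 1 kb (11.1%), beside 8.10% of all. Genes of other families were also broken in this way. Counted over gene spans with 2 kb on either side, 17 of 83 shared young regions at Hox genes were broken (20.5%), 28 of 168 at homeobox genes outside the clusters (16.7%), 4 of 13 at keratin genes (30.8%) and 5 of 14 at clustered protocadherin genes (35.7%). The widest, over Hoxa9 (chr6:52223648-52228168, 4521 bp, 45.0-fold), was met by 4 aged regions, which covered 89.98% of it. The next, over Hoxc11 (chr15:102952628-102956661, 4034 bp), was met by 3 that covered 94.5%. Those at the Hoxc9 start (3897 bp) and the Hoxc10 start (3410 bp) were met by 3 each, covering 82.5% and 74.4%. Between these in width, a region at Hoxa10 (3505 bp, 32.4-fold) was met by 2 that covered 94.2%. Within Hoxa10 a lower domain of 2549 bp and 5.55-fold in the young list was met by 5 aged regions covering 44.8% of it. By cluster the 20 broken regions numbered 5 in HoxA, 10 in HoxC and 5 in HoxD, with 0 in HoxB, where the widest region was 926 bp in the aged list and 919 bp in the young list. Among the 58642 strongest regions of each list, 5 of 14 shared young Hox regions of at least 2 kb were broken (35.7%), beside 21.5% of all such regions. The aged list as a whole is the shorter one, and the part of unequal depth in these breaks was not tested.

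**Figure D4:**
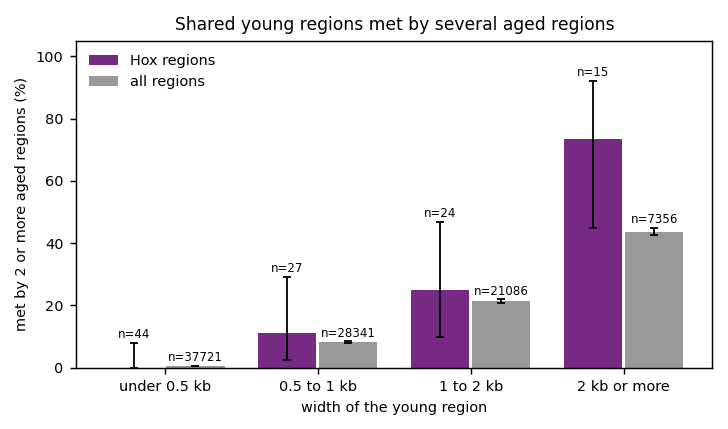
Percent of shared young regions that were met by 2 or more aged regions, by width of the young region, for Hox regions (purple, left bar) and all regions (grey, right bar), with 95% exact binomial intervals over regions and the number of regions above each bar. The share rises with width in both sets, to 73.3% of 15 Hox regions and 43.7% of 7356 regions of 2 kb or more.

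Other gene families in clusters had smaller shares of open bases. Over gene spans with 2 kb on either side, Hox genes were covered to 21.5% in the aged list and 26.8% in the young list. For 48 keratin genes, structural genes of skin and hair that also lie in clusters on chromosomes 11 and 15, the shares were 2.20% in the aged list and 3.07% in the young list. For 57 clustered protocadherin genes, neuronal adhesion genes, they were 2.58% in the aged list and 4.15% in the young list. Homeobox genes outside the clusters came nearer, with 13.6% in the aged list and 18.2% in the young list over 57 genes. Of the 36 of these with a listed start, 30 had a start region in both lists, 0 in the aged list alone, 3 in the young list alone and 3 in neither. Cdx2 and Cdx4, which switch on Hox genes in the embryo, and Nkx2-5, a factor of the heart, were those with none. The young-only starts, those of Otx2, Nkx2-3 and Tlx1, were between 2.60-fold and 3.13-fold. Their open starts had a median fold of 4.01 in the aged list and 6.56 in the young list, where the Hox genes had 12.35 in the aged list and 18.9 in the young list. En1, Pitx3, Dlx1 and Irx3 stood highest among them in the aged list, at 26.0-fold to 38.9-fold. No test was made of these differences, since each age has 1 list with no values of single libraries.

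Genes whose products act with Hox proteins or on the Hox clusters were examined where a start was listed, which leaves out 4 of 9 cofactor genes and 6 of 25 regulator genes. Of 9 genes for TALE cofactors, which bind DNA together with Hox proteins, 5 had a listed start, and all 5 had a start region in both lists, beside 63.2% of all genes with a listed start. Meis1, which pairs with posterior Hox proteins, had the highest, at 53.8-fold in the aged list and 78.9-fold in the young list, and Pbx2 the lowest, at 9.71-fold in the aged list and 11.4-fold in the young list. Of 25 genes for regulators of Hox clusters, 17 of the 19 with a listed start had a region there in both lists, and Cdx2 and Cdx4 had none. The open starts of these regulators had a median of 32.4-fold in the aged list and 54.3-fold in the young list. Those of all genes had 30.2-fold in the aged list and 46.3-fold in the young list. Ezh2, Eed, Kdm6a and Rnf2 were the 4 highest regulators in both lists. The Polycomb gene Ezh2 had 70.8-fold in the aged list and 94.2-fold in the young list, and the Polycomb gene Eed 60.3-fold (aged) and 93.5-fold (young). The H3K27 demethylase gene Kdm6a had 69.3-fold in the aged list and 101-fold in the young list, and the Polycomb ubiquitin ligase gene Rnf2 had 60.2-fold in the aged list and 86.2-fold in the young list. Among the genes beside the clusters, Cbx5, Lnpk, Skap2 and Snx10 had the highest start regions of the aged list, between 30.3-fold and 66.5-fold, and lay between 27.0-fold and 93.8-fold in the young list. Evx1, the homeobox gene next to Hoxa13, had 3.32-fold in the aged list and 2.91-fold in the young list, and Evx2, next to Hoxd13, had 2.499-fold in the aged list and 2.60-fold in the young list. Hottip had a start region in the aged list alone (2.84-fold) and Ttll6, beside HoxB, in the young list alone (2.82-fold).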

How the data were processed

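Per the submitters' processing notes, the aligner was Bowtie2 and the genome build mm10 (GRCm38). The authors deposited 1 narrowPeak list per age after PGE2 (called with MACS, per the file names). Not given in the sources used here: its version and options, the read filters and which libraries were pooled. The deposited fold ratio, −log10 p-value, −log10 q-value and score belong to each summit. The lowest deposited −log10 q-value was 2.16 (aged) and 2.08 (young).

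Rows that touch or overlap were merged (215838 aged and 265507 young rows), keeping the strongest summit, and regions were shared at an overlap of at least 1 bp. Merging and overlap were tested on simulated data. Gene spans, promoters and microRNAs came from RefSeq tables of GRCm38.p6. The strand of each cluster came from its listed promoters. The rule names 39 Hox genes, of which 1 is not reported here; the other 38 select the same regions. The members, gene lists and rules were chosen with earlier results of these data known. Named regions are the 10 strongest of each list in part, the strongest of each cluster, and the strongest found at 1 age in each cluster; the broken regions and the Hotair flank were chosen after their values were seen. Of the listed genes, Lhx7, Nkx2-7, Nkx2-8 and Prac1 were not matched by symbol. No test between ages was possible. Exact Clopper-Pearson intervals (95%) used scipy 1.17.1, with pandas 2.3.3 and Python 3.11.15.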

Additional observations from a re-analysis of the deposited data

How the results depend on the processing

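The number of Hox regions and the covered share of the clusters stayed within 1.5 times the reported values under the alternatives planned for each. The 58642 strongest regions of each list, which leave out 50% of the aged list by construction, held 71 aged and 66 young Hox regions. Of 82 values under alternatives, 65 stayed within the interval or the factor of 1.5, and 17 did not. With the 58642 strongest regions of each list, 5.63% of aged and 9.09% of young Hox regions lacked a counterpart (11.1% and 15.4% of all regions), 0 genes had a start region in the aged list alone and 0 in the young list alone, and 35.7% of young Hox regions of at least 2 kb were broken (21.5% of all). With a reciprocal overlap of 50%, 42% of aged and 40% of young Hox regions lacked a counterpart (33.9% and 41.2% of all). With the strongest summits within 100 bp, 37.3% of aged and 35.2% of young ones lacked one (28.2% and 36.0% of all). By their construction these rules can leave pieces of a broken region with no counterpart. With start windows of 500 bp, 2 genes had a start region in the young list alone. With windows of 2.5 kb, 0 genes had one in the aged list alone, 2 in the young list alone and 3 in neither. In the top 5% stood 0% of aged and 0% of young Hox regions, and in the top 20% 14% of aged and 19.3% of young ones. At a −log10 q of at least 5, 0 of 38 genes changed class. With the 58642 strongest regions 4 changed (Hoxb5, Hoxb13, Hoxc12 and Hoxd12), and the genes with a start region in neither list rose from 8 to 12. Start windows of 500 bp changed 2 genes (Hoxa7 and Hoxb7), and windows of 2.5 kb changed 6. Where both ends of the gene span were used in place of the starts, 5 changed. Broken regions, examined after seeing the data, made up 14.7% of shared young Hox regions at that threshold and 16.5% when rows within 100 bp were merged (9.61% and 9.80% of all regions). The counts of starts by paralogue with a wider window and without HoxB were also chosen after seeing the data. No paired analysis was possible because each age has 1 list with no value per library, and for the same reason no replicate could be left out.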
